A study of Mus musculus with 18 samples.

Results

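The response to differentiation was compared between a C2C12 clone labelled as a Dlk1-Dio3 overexpressor and its vector control. C2C12 is a mouse myoblast line that leaves the cell cycle and fuses into contractile myotubes when serum is reduced. For each gene the response is the log2 change from myoblasts to myotubes on day 3 of differentiation, and the difference in response is that of the overexpressor minus that of the control. A positive difference belongs to a gene that rose more, or fell less, in the overexpressor. The comparison rests on 12 of the 18 RNA sequencing libraries, with replicates A, B and C of control myoblasts, control myotubes, overexpressor myoblasts and overexpressor myotubes. Myoblasts of both lines grew in 10% fetal bovine serum, and myotubes of both had been moved to 2% horse serum. The control was an EGFP-positive sorted population that had received the pX458 plasmid (Cas9 and EGFP, no guide) alone. The overexpressor (called 2-4 in the labels) had received Cas9 with a pair of guide RNAs against the proximal promoter region of Meg3, was sorted in the same way, and was then grown from a single cell. Each genotype was thus 1 line, and the deletion, the raised RNA of the cluster and the clone cannot be told apart. The labels speak of triplicates without saying that these were separate cultures, so p-values measure the spread between these libraries, which may be technical.

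Dlk1-Dio3 is an imprinted region whose maternal copy gives the noncoding RNAs Meg3, Rian and Mirg, which host many microRNAs and small nucleolar RNAs, and which is active in muscle stem cells. During differentiation the factors Myod1 and Myog switch on sarcomere, calcium handling and fusion genes while replication and mitosis genes are switched off. Differentiating myoblasts also pass through a phase of endoplasmic reticulum stress signalling, remodel their matrix, and change sterol synthesis and the actin-dependent SRF programme.

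Meg3 itself had 0 counts in each of the 6 control libraries, which allows at most 3 counts per library. In the overexpressor it had 5363, 6924 and 6199 counts in myoblasts and 5222, 7763 and 7434 counts in myotubes, as the labels say. All 8 skeletal muscle markers were detected in every group. Libraries held 41544358 to 79140702 counts, and the overexpressor myotubes were the deepest at 67035356 to 79140702. At these depths 3 counts are worth between 0.0375 and 0.0693 CPM (counts per 1000000 of the TMM-scaled library). The edgeR coefficient of variation between replicates, beyond counting error, was 6.56% in control myoblasts, 9.22% in control myotubes, 11.6% in overexpressor myoblasts and 19.3% in overexpressor myotubes. Overexpressor myotube replicate C stood apart: a chi-square of its counts against replicates A and B gave 119.2 and 114.2 per degree of freedom, against 23.1 between A and B. Called members of the gene lists are therefore also counted without it, beside the list or under the dependence on processing.

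Of 17912 genes tested, 6977 (39.0%) had a difference in response at an adjusted p under 0.05 (edgeR quasi-likelihood test, Benjamini-Hochberg). The difference was positive for 2981 genes (16.6% of those tested) and negative for 3996 (22.3%), and its median over all genes was -0.051. It was at least 2-fold for 3005 of the called genes, at least 4-fold for 1252 and at least 16-fold for 364. Responses were sorted by the test within each line. The response was larger in the overexpressor for 1459 genes (8.15%), of which 638 (3.56%) rose in both lines and 821 (4.58%) fell in both. It was smaller for 1382 genes (7.72%), 608 of them rising (3.39%) and 774 falling (4.32%). It was reversed for 1110 genes (6.20%), of which 736 (4.11%) rose in the control and fell in the overexpressor and 374 (2.09%) did the opposite. A further 1433 called genes responded in the control only, with 851 rises (4.75%) and 582 falls (3.25%). Another 1518 (8.47%) responded in the overexpressor only, with 586 rises (3.27%) and 932 falls (5.20%), and 75 (0.419%) passed in neither line by its own test.

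**Figure D1:**
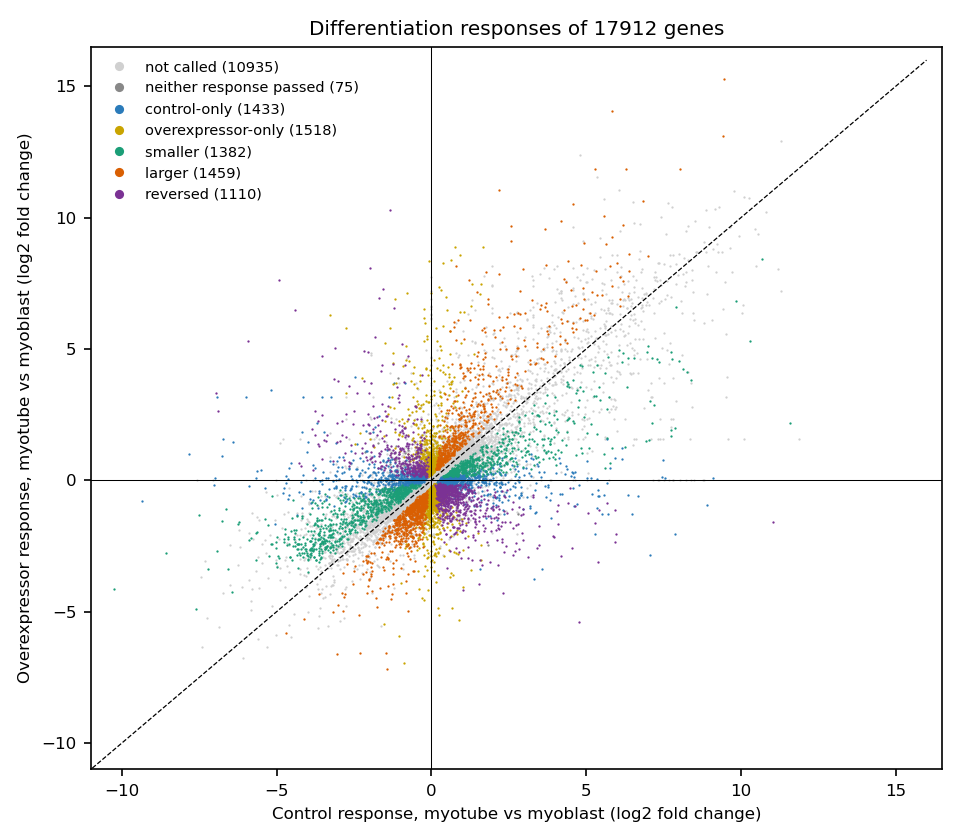
Each point is 1 of the 17912 genes tested, with its log2 change from myoblast to myotube in the control (x axis) and in the overexpressor (y axis). Colours give the response classes with their gene numbers, and the dashed line marks equal responses. Reversed genes (1110) fill the upper left and lower right quadrants, larger responses (1459) lie farther from the horizontal axis than the dashed line, and smaller ones (1382) lie between it and that axis.

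The plot of the paired responses shows that strong control responses were mostly followed in the same direction by the overexpressor, at a reduced median size. Among the 2709 genes that rose at least 2-fold in the control, the median rise was 2.14 (log2) in the control and 1.45 in the overexpressor. Of these, 429 had a smaller response, 303 responded in the control only, 195 were reversed and 285 had a larger response. Among the 2430 genes that fell at least 2-fold in the control, the median fall was -1.90 in the control and -1.22 in the overexpressor, with 663 smaller, 286 control-only, 148 reversed and 169 larger responses. These genes were chosen for a strong control response, which by itself can pull the other line's median towards 0, so the medians are a description.

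The split between positive and negative differences depended on the scaling. Positive differences made up 42.7% of the calls with TMM, 53.9% with DESeq2 size factors in the same test, 61.0% with library totals and 53.8% with the DESeq2 Wald test. Without overexpressor myotube replicate C they made up 51.6% of 7222 calls (3730 higher and 3492 lower). The split of each response class by direction was not recounted in these settings. The median over all genes moved to 0.0596 with size factors and to 0.135 with totals. Small differences near these shifts are therefore read beside the median of all genes, and the groups described first are those whose direction held under each of these settings.

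**Figure D2:**
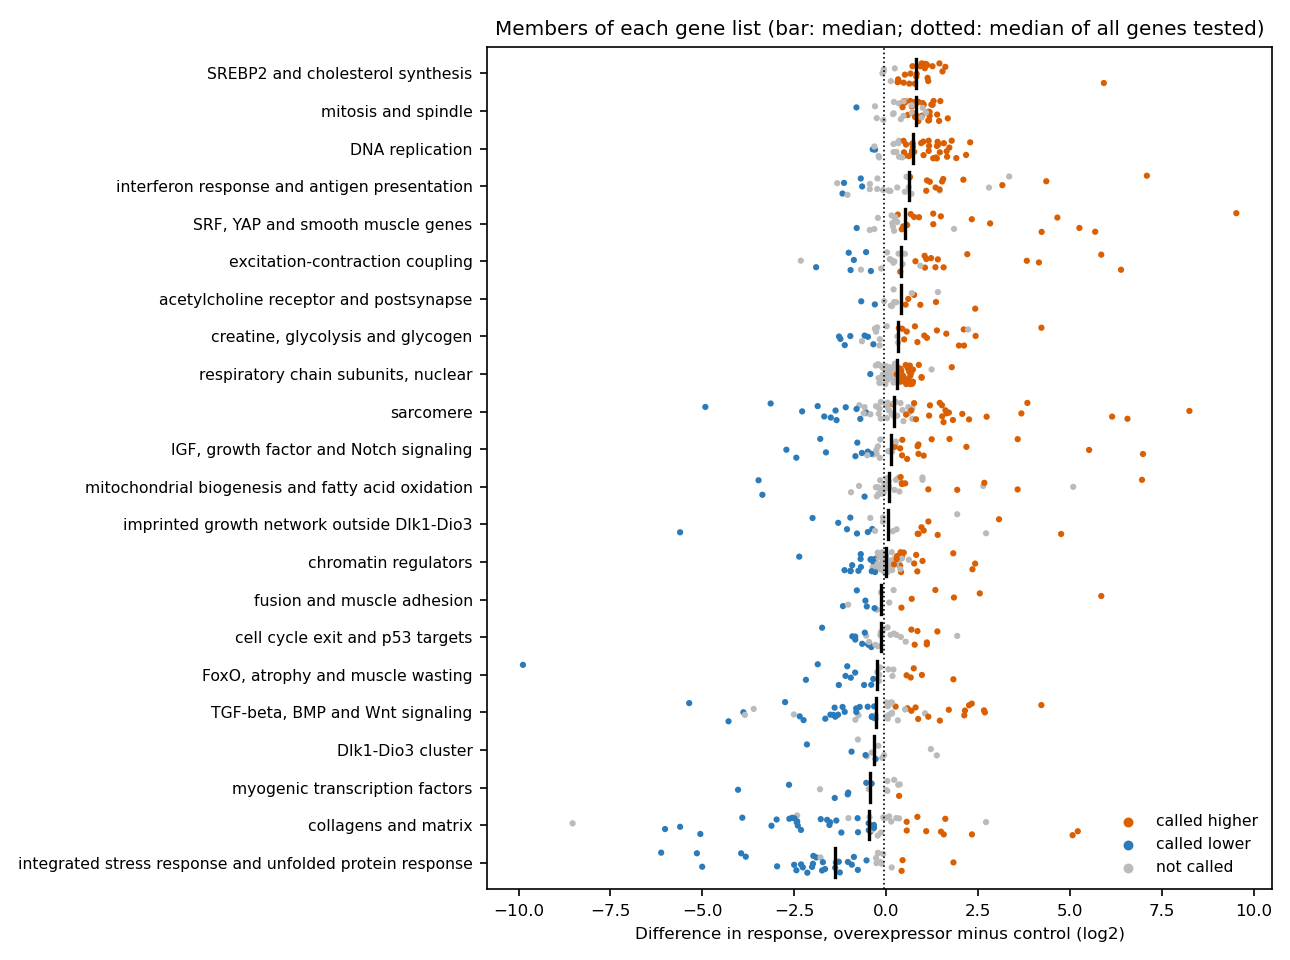
Each point is 1 tested member of a gene list, at its difference in response (overexpressor minus control, log2). Orange and blue mark members called higher and lower, black bars the list medians and the dotted line the median of all genes (-0.051). The integrated stress response lies lowest (median -1.38) and cholesterol synthesis highest (0.82).

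The plot of list members orders 22 gene lists by their median difference. The stress response list stood lowest, followed by collagens and matrix and by the myogenic transcription factors. Cholesterol synthesis, mitosis, DNA replication, the interferon list and the SRF and smooth muscle list stood highest. Markers of other cell types are not among the 22. All the lists describe the same 12 libraries and are not independent of each other.

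Integrated stress response genes had the lowest median difference of the 22 lists in that plot. This pathway senses amino acid shortage, misfolded protein and mitochondrial stress, slows general translation and raises the transcription factor Atf4, which then drives amino acid synthesis, transport and the factors Ddit3 (CHOP) and Atf3. Of 39 members tested, 27 had a lower response in the overexpressor and 3 a higher one (22.3% and 16.6% of all genes tested), and 27 were also lower with size factors, with totals and without overexpressor myotube replicate C. The median difference was -1.38. In the control 30 of the 39 members rose during differentiation, against 19 in the overexpressor (33.9% and 29.8% of all genes). In myotubes 34 were lower in the overexpressor than in the control (30.9% of all genes were). The class counts were 17 smaller rises, 6 control-only rises, 4 reversals from rise to fall and 3 smaller falls.

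Trib3 (chr2:152337422-152344032), a pseudokinase induced by Atf4 and Ddit3, stood at 3.99, 4.71 and 4.34 CPM in control myoblasts and at 352, 348 and 299 CPM in control myotubes. In the overexpressor it stood at 5.91, 5.20 and 4.97 CPM in myoblasts and at 12.3, 15.0 and 11.04 CPM in myotubes. The 3 control myotube libraries were far above all the others, and the overexpressor myotubes lay above the myoblasts of both lines. Its rise was 6.26 ± 0.16 (log2, SE) in the control and 1.25 ± 0.14 in the overexpressor, a difference of -5.00 ± 0.20 (edgeR adjusted p 4.03e-12). Ddit3 (chr10:127290774-127296288), the CHOP transcription factor of unresolved stress, stood at 10.1, 12.2 and 10.1 CPM in control myoblasts and at 145, 144 and 147 CPM in control myotubes. Overexpressor myoblasts had 10.4, 11.3 and 10.3 CPM and overexpressor myotubes 8.21, 11.5 and 8.24 CPM. All 3 control myotubes exceeded every other library at least 10-fold, and the overexpressor libraries of both stages overlapped. The difference was -3.94 ± 0.16 (adjusted p 2.55e-12). Ddit3 was chosen for display after its values were seen, as were Atf4, Asns and Chac1, and its exons overlap those of Mars on the opposite strand.

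Atf4 (chr15:80255184-80257541), the central factor of the pathway, stood at 285, 285 and 288 CPM in control myoblasts and at 1139.5, 1176 and 1144 CPM in control myotubes. The overexpressor held 285, 274 and 275 CPM in myoblasts and 445, 463 and 396 CPM in myotubes. Myoblasts of the lines overlapped, and both lines rose, the overexpressor less (difference -1.36 ± 0.082, adjusted p 3.57e-10). Asns, which makes asparagine, rose from a mean of 74.9 to 632 CPM in the control and from 87.3 to 187 CPM in the overexpressor (difference -1.98 ± 0.12). Chac1, which degrades glutathione, rose from 13.5 to 210.2 CPM and from 18.7 to 58.4 CPM (difference -2.31 ± 0.16). Both kept a rise in the overexpressor that was smaller than in the control.

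Other members already differed before differentiation. Gdf15 (chr8:70629393-70632456), a secreted stress hormone, stood at 6.42, 4.98 and 7.19 CPM in control myoblasts and at 102, 101 and 86.0 CPM in control myotubes. Values of the overexpressor were 69.2, 62.7 and 67.1 CPM in myoblasts and 15.3, 16.52 and 12.7 CPM in myotubes. It was therefore high in overexpressor myoblasts and in control myotubes, with no overlap between the stages of either line, and its response was reversed (difference -6.12 ± 0.21, adjusted p 5.77e-13). Atf3, an early stress factor, rose from 0.466 to 22.8 CPM in the control and from 4.94 to 6.79 CPM in the overexpressor, whose myoblast and myotube ranges touched between 5.63 and 5.93 CPM. The 3 members with a higher response were endoplasmic reticulum chaperones and cofactors that fell in the control and fell less in the overexpressor: Sdf2l1 (1.83), Manf (0.45) and Creld2 (0.42). Other genes of the endoplasmic reticulum had lower responses, among them Edem1 (-1.72), Sel1l (-1.26), Herpud1 (-0.88), Dnajb9 (-0.77) and Xbp1 (-0.53), all named after their values were seen.

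Promoters of 3 members are printed because their genes moved together and hold the composite element bound by C/EBP and ATF family factors, written TGATGNAA and searched on both strands. The sequences are RefSeq's for GRCm38.p6, 250 bases before the start, 5′ to 3′ on the gene's strand, with the match in capitals: Atf3 (chr1:191183334-191183583, minus strand, match 110 bases before the start), Asns (chr6:7693210-7693459, minus strand, 23 bases before) and Chac1 (chr2:119350992-119351241, plus strand, 193 bases before).
Atf3: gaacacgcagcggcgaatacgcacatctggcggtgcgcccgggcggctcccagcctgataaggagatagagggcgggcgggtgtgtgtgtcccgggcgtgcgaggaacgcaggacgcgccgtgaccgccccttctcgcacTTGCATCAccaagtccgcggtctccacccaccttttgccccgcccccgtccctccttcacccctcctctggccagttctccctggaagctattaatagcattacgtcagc
Asns: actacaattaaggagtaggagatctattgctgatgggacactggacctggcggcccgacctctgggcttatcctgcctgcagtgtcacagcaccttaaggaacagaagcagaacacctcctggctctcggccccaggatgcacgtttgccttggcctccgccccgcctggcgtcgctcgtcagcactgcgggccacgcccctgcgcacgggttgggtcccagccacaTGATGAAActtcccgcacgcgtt
Chac1: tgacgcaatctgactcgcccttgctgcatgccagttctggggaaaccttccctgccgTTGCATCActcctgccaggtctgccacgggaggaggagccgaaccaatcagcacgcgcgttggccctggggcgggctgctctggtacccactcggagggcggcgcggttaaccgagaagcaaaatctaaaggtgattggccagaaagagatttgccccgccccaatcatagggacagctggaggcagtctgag
The element was found in 8 of the 34 list promoters in the table (23.5%) and in 283 of the 11508 tested genes with a promoter (2.46%). Of the 26 called members with a promoter, 6 held it. A match is a description of the letters and not evidence of binding.

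**Figure D3:**
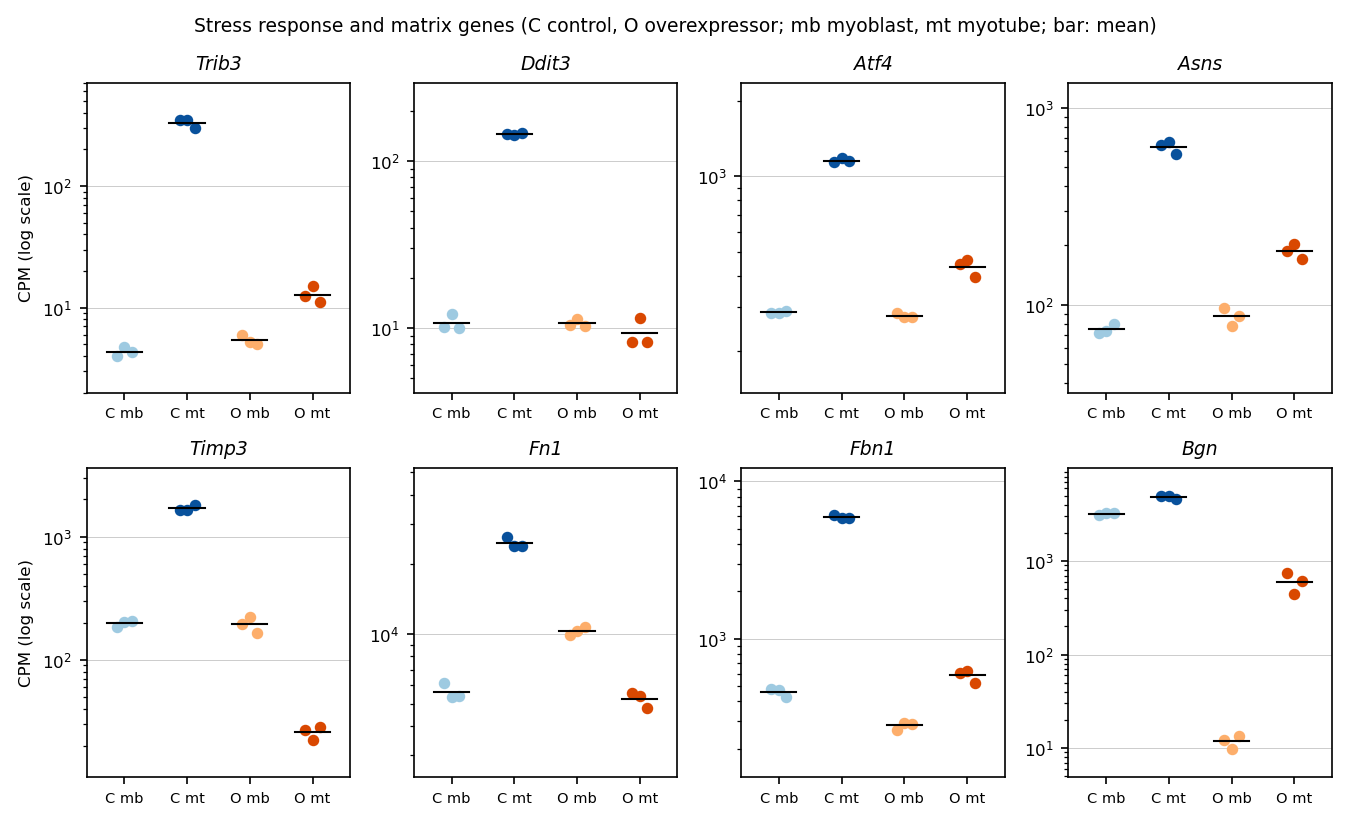
CPM of each library on a log axis for 4 stress response genes (top) and 4 matrix genes (bottom), with points for replicates A, B and C from left to right and bars at the means. For Trib3, Ddit3, Atf4 and Asns the control myotubes are the highest group, and for Timp3 and Fn1 the overexpressor myotubes fall below their own myoblasts while the control myotubes rise.

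Collagen and matrix genes formed a second group with a lower response. These proteins build the basement membrane and connective tissue around muscle fibres, and C2C12 cells secrete many of them. Of 51 members tested, 26 had a lower and 10 a higher response (22.3% and 16.6% of all genes), with a median difference of -0.47. Without overexpressor myotube replicate C the counts were 12 higher and 23 lower. The most frequent class was reversal from rise to fall, with 12 members (4.11% of all genes). In the control 31 members rose (33.9% of all genes), and in the overexpressor 21 rose and 22 fell (29.8% and 33.0% of all genes). The overexpressor was lower than the control for 29 of the 51 in myoblasts and for 40 of them in myotubes (19.7% and 30.9% of all genes).

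Timp3 (chr10:86300372-86349506), a matrix-bound inhibitor of metalloproteinases, stood at 186, 201 and 206 CPM in control myoblasts and at 1655, 1646 and 1809 CPM in control myotubes. Libraries of the overexpressor stood at 193, 223 and 165 CPM as myoblasts and at 27.0, 22.2 and 28.3 CPM as myotubes. Myoblasts of the lines overlapped, control myotubes were the highest libraries, and overexpressor myotubes were the lowest, without overlap. The response was 3.11 ± 0.13 in the control and -2.91 ± 0.13 in the overexpressor (difference -6.01 ± 0.19, adjusted p 2.74e-13). Fn1 (chr1:71585520-71653200), fibronectin, stood at 6141, 5320.1 and 5417 CPM in control myoblasts and at 26211, 24141 and 24010.3 CPM in control myotubes. Its overexpressor levels were 9913, 10259 and 10771 CPM in myoblasts and 5531, 5391 and 4792 CPM in myotubes. Overexpressor myoblasts exceeded control myoblasts, and its myotubes fell back to about the control myoblast level (difference -3.12 ± 0.11). Exons of Timp3 overlap those of Syn3 and exons of Fn1 those of Apol7d on the opposite strand, and the use of strand in the counting was not given in the sources used here.

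Fbn1 (chr2:125300594-125507993), fibrillin of the microfibrils, stood at 481, 469 and 428 CPM in control myoblasts and at 6097, 5823 and 5843 CPM in control myotubes. In the overexpressor it stood at 263, 291 and 288 CPM in myoblasts and at 605, 620.4 and 526 CPM in myotubes. Both lines rose, the overexpressor far less (difference -2.63 ± 0.12, adjusted p 6.64e-12). Col3a1 rose from 2817 to 18305 CPM in the control and stood at 3224, 3127 and 3276 CPM in overexpressor myoblasts and 3292, 4419.7 and 2961 CPM in its myotubes, which overlapped (difference -2.55 ± 0.15). Dcn, the small proteoglycan decorin, rose from 1.88 to 46.6 CPM in the control, and it fell from 12.8 to 6.53 CPM in the overexpressor (difference -5.60 ± 0.25). Fn1, Fbn1, Col3a1 and Col1a2 were chosen for display after their values were seen.

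A few matrix genes started very low in the clone and rose from there. Bgn (chrX:73483602-73495933), the proteoglycan biglycan, stood at 3094, 3279.5 and 3239.7 CPM in control myoblasts and at 4897, 4969 and 4598 CPM in control myotubes. Overexpressor myoblasts had 12.3, 9.73 and 13.6 CPM and overexpressor myotubes 754, 439.7 and 611 CPM. No overexpressor library came within 4-fold of any control library, yet its response was the larger one (difference 5.08 ± 0.21, adjusted p 1.13e-11). Col1a1 also had a larger rise, with a mean of 9.85 CPM in overexpressor myoblasts and 395 CPM in its myotubes, against 779 and 6184 CPM in the control (difference 2.34 ± 0.25). Its partner chain Col1a2 was reversed, from 2784 to 6400.3 CPM in the control and from 2718 to 2174 CPM in the overexpressor. A positive difference on the log2 scale thus did not mean a higher level in myotubes.

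Most markers of fibroblasts moved with this group. The summed level of 11 such markers, which include Col1a1, Col1a2 and Dcn of the matrix list, ran from 4491 to 4560.3 CPM in control myoblasts and from 13396 to 14804 CPM in control myotubes. It ran from 3204 to 3457 CPM in overexpressor myoblasts and from 2438 to 3014 CPM in its myotubes. Among the 10 tested, 7 had a lower and 2 a higher response (22.3% and 16.6% of all genes, median -1.89). The 2 were Pdgfrb (0.38) and Col1a1 (2.34). Thy1 was at or near 0 in every group and Lum was at 0 in the myoblasts of both lines. In bulk RNA, fewer cells of a kind and less RNA per cell cannot be told apart, and the part of such cells in the matrix result was not tested.

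Genes of the SRF and smooth muscle programme went the other way. SRF with its actin-sensing cofactors drives cytoskeletal and smooth muscle contractile genes, which proliferating myoblasts express and which normally decline in myotubes. Of 30 members tested, 18 had a higher and 1 a lower response (16.6% and 22.3% of all genes). The lower one was Fosl1 (-0.80), a call that was lost with totals, with no filter, with limma-voom and without overexpressor myotube replicate C. The median difference was 0.52, and without that library the counts were 20 higher and 1 lower, the lower one being another member. In the control 17 members fell and 5 rose (28.8% and 33.9% of all genes). In the overexpressor 10 fell and 17 rose (33.0% and 29.8% of all genes). Reversal from fall to rise was the most frequent class, with 7 members (2.09% of all genes).

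Myl9 (chr2:156775420-156781658), a regulatory light chain of smooth muscle and nonmuscle myosin, stood at 160.0, 165 and 162 CPM in control myoblasts and at 20.3, 27.4 and 24.6 CPM in control myotubes. The overexpressor held 22.8, 19.8 and 23.8 CPM in myoblasts and 138, 127 and 112 CPM in myotubes. High and low groups changed places: control myoblasts and overexpressor myotubes were high, control myotubes and overexpressor myoblasts low. The response was -2.75 ± 0.10 in the control and 2.51 ± 0.10 in the overexpressor (difference 5.26 ± 0.14, adjusted p 1.36e-14). Lmod1 (chr1:135324807-135368065), leiomodin of smooth muscle filaments, stood at 21.5, 23.1 and 22.3 CPM in control myoblasts and at 9.85, 9.64 and 8.69 CPM in control myotubes. Values of the overexpressor were 0.818, 0.518 and 0.693 CPM in myoblasts and 15.99, 14.1 and 14.4 CPM in myotubes. The overexpressor myoblasts were the lowest libraries and control myoblasts the highest, and the difference was 5.69 ± 0.15 (adjusted p 1.36e-14).

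Acta2 (chr19:34241090-34255590), smooth muscle actin, chosen after its values were seen, stood at 3791, 3906 and 3844 CPM in control myoblasts and at 1749.5, 2101 and 1906 CPM in control myotubes. Libraries of the overexpressor stood at 1522, 1304 and 1574 CPM as myoblasts and at 5386, 5772 and 4473 CPM as myotubes. All 3 overexpressor myotubes lay above every other library (difference 2.83 ± 0.13, adjusted p 1.47e-11). Cnn1, calponin, fell from 28.1, 30.3 and 29.6 to 0.189, 0.320 and 0.234 CPM in the control, and it rose from 0.379, 0.582 and 1.04 to 5.93, 1.38 and 5.06 CPM in the overexpressor. The spread among its overexpressor myotubes was wide, with replicate B close to the myoblasts, and the difference was 9.53 ± 0.69. The summed level of 7 smooth muscle markers ran from 4256 to 4394 CPM in control myoblasts, 1803 to 2184 CPM in control myotubes, 1427 to 1708 CPM in overexpressor myoblasts and 4815 to 6151 CPM in its myotubes. Most of each sum was Acta2 (means of 3847, 1919, 1467 and 5211 CPM in the same order), so it largely repeats that gene. Lmod1 and Cnn1, described above, are also among the 7. Myh11 and Myocd, which define smooth muscle, had means of at most 0.153 and 0.432 CPM in any group. By contrast, 5 of the 7 markers, all of them cytoskeletal genes, had a higher response (16.6% of all genes).

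The promoters of Myl9 (chr2:156775214-156775463, plus strand) and of Srf itself (chr17:46556163-46556412, minus strand) are shown because they hold the CArG box, the sequence that SRF binds, in capitals, 161 bases before the start in Myl9 and 82 and 62 bases before it in Srf.
Myl9: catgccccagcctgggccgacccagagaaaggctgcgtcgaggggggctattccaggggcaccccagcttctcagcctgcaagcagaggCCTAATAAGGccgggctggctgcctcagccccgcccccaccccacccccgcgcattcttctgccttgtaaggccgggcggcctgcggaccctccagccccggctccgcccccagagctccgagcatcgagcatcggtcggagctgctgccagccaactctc
Srf: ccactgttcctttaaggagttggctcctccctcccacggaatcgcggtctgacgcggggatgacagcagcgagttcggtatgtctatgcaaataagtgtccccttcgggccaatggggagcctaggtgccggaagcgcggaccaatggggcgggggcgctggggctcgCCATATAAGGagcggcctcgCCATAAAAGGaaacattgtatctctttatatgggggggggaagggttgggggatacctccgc
A CArG box on either strand was found in 5 of 22 list promoters (22.7%), those of Cnn2, Myl9, Vcl, Srf and Actg1, and in 176 of the 11508 tested genes with a promoter (1.53%). All 5 genes were among the called members, but 14 of all 22 members with a promoter were called (39.0% of all genes were). Whether the box goes with the response was not tested.

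Cholesterol synthesis genes fell less in the overexpressor. The transcription factor SREBP2 raises these enzymes when cell sterol is low. Of 29 members tested, 24 had a higher response and 0 a lower one at an adjusted p under 0.05 (edgeR, 16.6% and 22.3% of all genes). The median difference was 0.82, and 25 were higher without overexpressor myotube replicate C. The lower count was also 0 in each of 20 other settings, DESeq2 and limma-voom included. By the unadjusted p under 0.05 the lower count was likewise 0. In the control 26 members fell and 1 rose (28.8% and 33.9% of all genes), against 13 and 5 in the overexpressor (33.0% and 29.8%). The overexpressor began lower: 25 of the 29 were below the control in myoblasts (19.7% of all genes were). In myotubes 15 were above it and 6 below (26.2% and 30.9% of all genes).

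Acat2 (chr17:12942890-12960747), which makes acetoacetyl-CoA, stood at 117, 125 and 129 CPM in control myoblasts and at 25.3, 31.5 and 24.1 CPM in control myotubes. Its overexpressor levels were 60.4, 57.0 and 57.3 CPM in myoblasts and 39.1, 40.8 and 36.3 CPM in myotubes. The groups did not overlap, and the overexpressor moved over a narrower range inside that of the control (difference 1.61 ± 0.12, adjusted p 3.78e-09). Hmgcs1, an early synthase of the pathway, fell from 319 to 146 CPM in the control, and its overexpressor libraries stood at 182, 213 and 154 CPM in myoblasts and 173, 176 and 256 CPM in myotubes, which overlapped. Hmgcs1 and the epoxidase Sqle, which differed by only 0.31, were chosen after their values were seen.

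Idi1, the isomerase of the isoprenoid steps, fell from 8.61, 5.94 and 5.86 to 2.33, 2.08 and 3.34 CPM in the control. Its overexpressor libraries stood at 2.495, 4.85 and 3.51 CPM in myoblasts and 2.73, 3.00 and 6.25 CPM in myotubes, with no called response. The stages overlapped in the overexpressor and not in the control, and the difference was 1.54 ± 0.45 (adjusted p 0.013). The sterol element TCACNCCAC was found on either strand in 1 of 19 list promoters, that of Hmgcs1, and in 148 of the 11508 tested genes (1.29%).

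**Figure D4:**
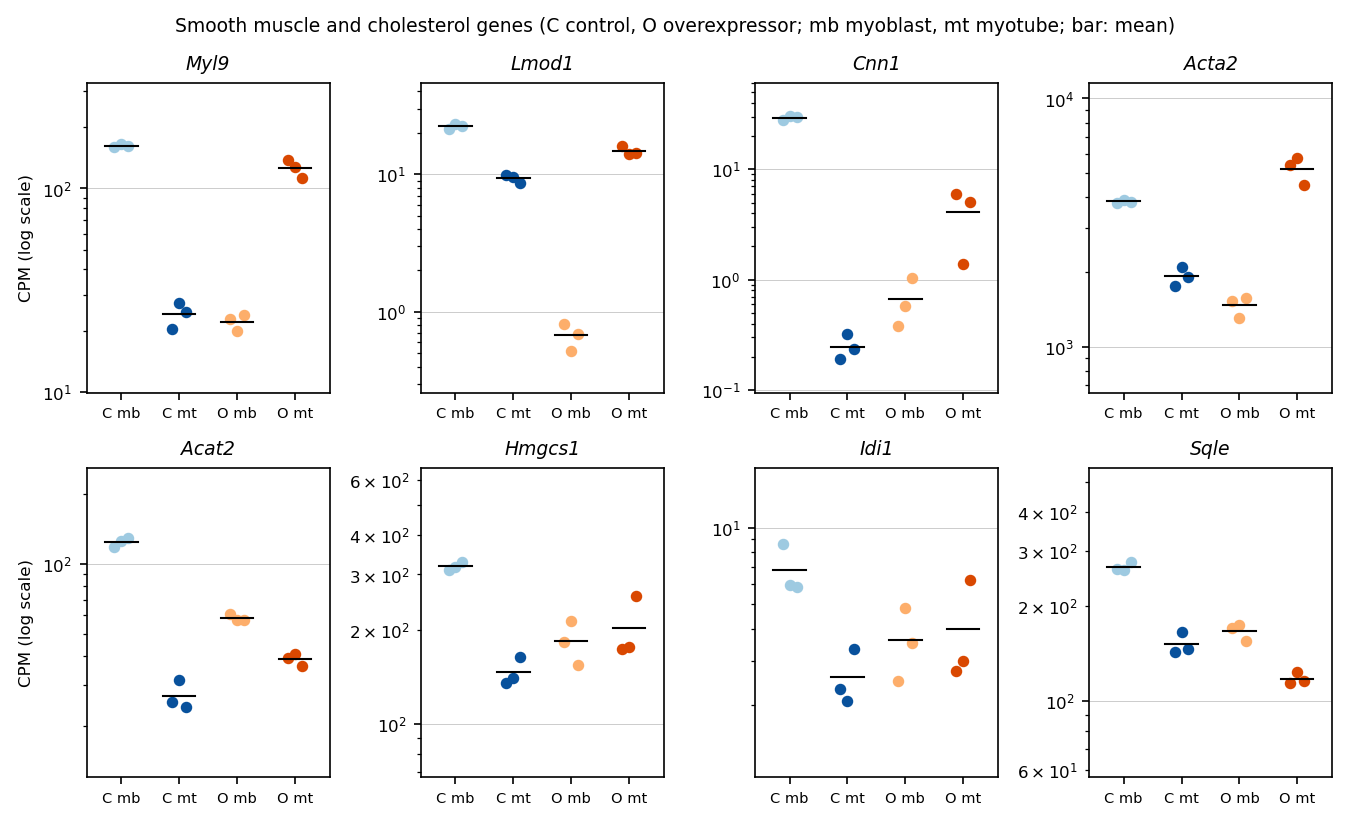
CPM of each library on a log axis for 4 smooth muscle genes (top) and 4 cholesterol genes (bottom), with bars at the means. Myl9, Lmod1 and Acta2 fall in the control and rise in the overexpressor, and for Acat2 the overexpressor groups lie between the control groups.

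Sarcomere genes rose in both lines and differed by member. The sarcomere is the contractile unit, and its fast fibre, slow fibre and developmental isoforms are encoded by separate genes. Of 63 members tested, 57 rose in the control and 62 in the overexpressor (33.9% and 29.8% of all genes). A higher response was called for 23 and a lower one for 12 (16.6% and 22.3% of all genes, median difference 0.22). These were 17 larger rises, 12 smaller rises, 4 rises in the overexpressor only, 1 reversal from fall to rise and 1 smaller fall. Without overexpressor myotube replicate C the counts were 25 higher and 11 lower. In myotubes 51 of the 63 were higher in the overexpressor and 3 lower (26.2% and 30.9% of all genes were).

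Tnnt1 (chr7:4504570-4516382), the slow skeletal troponin T, chosen after its values were seen, stood at 45.5, 50.4 and 40.5 CPM in control myoblasts and at 586, 603 and 669.6 CPM in control myotubes. In the overexpressor it stood at 40.5, 33.4 and 42.2 CPM in myoblasts and at 1976, 1808 and 1803 CPM in myotubes. Myoblasts overlapped between the lines and overexpressor myotubes lay above control myotubes (difference 1.82 ± 0.15, adjusted p 2.12e-08). Its fast counterpart Tnnt3, also chosen afterwards, differed by 0.81 ± 0.22. Myh4, a fast adult myosin heavy chain, had at most 10 counts in any myoblast library and reached 87.5, 111 and 122 CPM in control myotubes and 576, 521 and 673 CPM in overexpressor myotubes. Its difference of 3.68 ± 1.06 lost its call without control myoblast replicate A (3.50, adjusted p 0.052) or B (3.48, adjusted p 0.054) and with limma-voom (3.30, adjusted p 0.057), but the myotubes themselves did not overlap (2.47 ± 0.21 between lines, adjusted p 1.22e-07).

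Some sarcomere genes were near their floor before differentiation. Myl2, the slow and cardiac regulatory light chain, had at most 3 counts in any myoblast library, and stood at 0.834, 1.51 and 1.44 CPM in control myotubes and 40.4, 38.6 and 39.6 CPM in overexpressor myotubes. Its rise was at least 20.96-fold in the control and at least 611-fold in the overexpressor, taking 3 counts per library as the floor. The fitted difference was called, and the call was lost without control myoblast replicate A, the library with its only myoblast counts (4.97, adjusted p 1). Mybpc2, the fast myosin binding protein C, rose at least 14.3-fold in the control, to 0.966, 0.778 and 0.848 CPM, and at least 541-fold in the overexpressor, to 39.8, 26.9 and 38.3 CPM. Its called difference was lost without control myoblast replicate B (5.74, adjusted p 0.069), and in both genes every overexpressor myotube lay more than 10-fold above every control myotube.

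Smaller rises included genes that stood higher in overexpressor than in control myoblasts. The lowest difference in the list was that of Xirp2, an actin-binding repeat protein (-4.92), which stayed under the 5 CPM limit and is named after its values were seen. Titin (Ttn), also chosen after its values were seen, rose from 17.5, 15.1 and 10.3 to 669, 624 and 803 CPM in the control and from 44.2, 61.0 and 71.6 to 817, 699.5 and 1517 CPM in the overexpressor, where replicate C was the highest. Its difference was -1.504 ± 0.39 (adjusted p 0.0066) although the myotubes overlapped. Myo18b, an unconventional myosin needed for sarcomere assembly, had a difference of -3.14 ± 0.32 with means of 0.447 and 8.62 CPM in the myoblasts and 99.2 and 214 CPM in the myotubes of control and overexpressor. Csrp3 (-1.86, myoblast means 0.735 CPM in control and 2.25 CPM in overexpressor) and the perinatal myosin Myh8 (-2.28, 0.0768 and 0.325 CPM) also had smaller rises, the latter call being lost without control myoblast replicate C (-1.90, adjusted p 0.056) or overexpressor myoblast replicate C (-1.97, adjusted p 0.074) and with no filter. For the embryonic myosin Myh3 the difference was 0.62 ± 0.27 (adjusted p 0.087), which was not called, and it was called without control myoblast replicate C (0.78, adjusted p 0.03) or overexpressor myoblast replicate C (0.90, adjusted p 0.0042), with size factors (0.73, adjusted p 0.04) and with totals (0.81, adjusted p 0.028).

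The promoters of Myh4 (chr11:67237562-67237811, plus strand) and Myl2 (chr5:122092939-122093188, plus strand) show the E-box CAGCTG, the palindromic site that Myod1 and Myog bind, in capitals, 67 and 130 bases before the start. Myl2 has 2 promoters in the table, of which 1 is printed.
Myh4: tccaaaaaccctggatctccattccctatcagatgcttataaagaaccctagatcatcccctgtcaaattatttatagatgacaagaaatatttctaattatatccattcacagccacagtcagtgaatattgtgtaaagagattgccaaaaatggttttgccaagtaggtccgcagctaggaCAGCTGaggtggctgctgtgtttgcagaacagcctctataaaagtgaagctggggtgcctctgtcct
Myl2: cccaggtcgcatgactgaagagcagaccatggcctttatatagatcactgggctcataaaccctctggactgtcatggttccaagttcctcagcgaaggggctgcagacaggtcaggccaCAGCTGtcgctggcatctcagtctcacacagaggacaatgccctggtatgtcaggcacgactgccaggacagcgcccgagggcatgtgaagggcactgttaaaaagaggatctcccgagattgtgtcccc
This E-box was found in 18 of 49 sarcomere promoters (36.7%) and in 1749 of the 11508 tested genes (15.2%), and 10 of the 28 called members with a promoter held it.

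Among genes of calcium handling and of rapid energy supply, higher responses outnumbered lower ones. Excitation-contraction coupling links the membrane signal to calcium release, and 14 of 32 members had a higher and 6 a lower response (16.6% and 22.3% of all genes, median 0.42). Pvalb (chr15:78191114-78206400), the calcium buffer of fast fibres, stood at 1.14, 1.10 and 0.958 CPM in control myoblasts and at 1.93, 2.86 and 2.74 CPM in control myotubes. Overexpressor myoblasts had 0.180, 0.194 and 0.277 CPM and overexpressor myotubes 47.3, 36.8 and 44.3 CPM. Overexpressor myotubes stood more than 10-fold above every other library, and its myoblasts were the lowest group (difference 6.39 ± 0.27, adjusted p 4.18e-12). Clcn1, the muscle chloride channel, was reversed, falling from 0.643 to 0.219 CPM in the control and rising from 0.839 to 5.26 CPM in the overexpressor. Ryr1, the calcium release channel, had the smaller rise (-0.96) from a start of 41.2 CPM in overexpressor against 10.2 CPM in control myoblasts. A lower response was also called for the calcium channel subunit Cacng1 (-1.02).

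In the creatine, glycolysis and glycogen list 15 of 32 members had a higher and 7 a lower response (16.6% and 22.3% of all genes, median 0.34). Ckm (chr7:19404776-19422841), muscle creatine kinase, stood at 5.19, 7.65 and 5.28 CPM in control myoblasts and at 209, 241 and 212 CPM in control myotubes. The overexpressor held 11.2, 6.30 and 12.9 CPM in myoblasts and 1612, 1428 and 1341 CPM in myotubes. All 3 overexpressor myotubes exceeded every control myotube at least 5-fold, while the myoblasts overlapped (difference 1.98 ± 0.30, adjusted p 8.24e-05). The brain isoform Ckb (2.12) and Gamt, the last enzyme of creatine synthesis (2.11, reversed from a fall to a rise), went the same way. Ldhb, the heart type lactate dehydrogenase, fell from 5.94, 8.17 and 7.42 to 2.14, 2.24 and 1.62 CPM in the control, and it rose from 1.78, 1.94 and 1.85 to 9.76, 10.5 and 8.72 CPM in the overexpressor (difference 4.23 ± 0.22). Hexokinase Hk2 (-1.28), phosphofructokinase Pfkp (-1.24) and the creatine transporter Slc6a8 (-1.12) had lower responses. Both directions also occurred among related members named after their values were seen: Gatm, the first enzyme of creatine synthesis, had a lower response (-0.97), and the glucose transporter Slc2a4 was reversed from a fall to a rise (2.44).

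Of 16 acetylcholine receptor and postsynapse genes, 6 had a higher and 2 a lower response (16.6% and 22.3% of all genes, median 0.40). Ache, which breaks down acetylcholine at the synapse, rose by 4.88 (log2) to 6.15 CPM in control and by 7.31 to 9.46 CPM in overexpressor myotubes. The difference was 2.43 ± 0.57 (edgeR adjusted p 0.0022), and its call was lost with limma-voom (1.89, adjusted p 0.069). Myotube levels differed less than the responses did, so this difference rests largely on the low myoblast levels. Dok7, an activator of the receptor kinase MuSK, differed by 1.36 ± 0.17, and Rapsn, which anchors the receptors, was reversed from a fall to a rise (0.93 ± 0.14). Lrp4, the agrin receptor, had the smaller rise (-0.68).

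Lower responses outnumbered higher ones among the transcription factors of muscle. Of 16 myogenic transcription factors tested, 1 had a higher and 7 a lower response (16.6% and 22.3% of all genes), with a median of -0.43 and 1 higher and 7 lower without overexpressor myotube replicate C. Myog (chr1:134289989-134292548), which starts terminal differentiation, stood at 99.4, 126 and 90.3 CPM in control myoblasts and at 1764, 1768 and 1663 CPM in control myotubes. Values of the overexpressor were 321, 226 and 344 CPM in myoblasts and 2007, 1899 and 1659.9 CPM in myotubes. Overexpressor myoblasts already exceeded control myoblasts, while the myotubes of both lines overlapped, which gave a smaller rise (difference -1.40 ± 0.19, adjusted p 1.95e-05). In myoblasts 10 of the 16 were higher in the overexpressor and 1 lower (20.7% and 19.7% of all genes). In myotubes 7 were higher and 4 lower (26.2% and 30.9% of all genes).

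Myf5, a factor of undifferentiated myoblasts, fell from 25.5 to 6.201 CPM in the control and from 73.0 to 8.59 CPM in the overexpressor, a larger fall (-1.04 ± 0.26). Mef2a, a cofactor of Myog, had a smaller rise (-1.03 ± 0.28) and Mef2d a larger one (0.35 ± 0.092). The lowest differences in the list were those of Myf6 (-4.03), which rose in the control only, and Msc (-2.64), which was reversed from rise to fall. Both stayed under the 5 CPM limit and are named after their values were seen. For Myod1 the difference was -0.39 ± 0.14, but this call was lost with size factors (-0.28, adjusted p 0.17), with totals (-0.20, adjusted p 0.23) and with the DESeq2 Wald test. It was also lost without any 1 of 7 libraries, namely control myoblast replicate A, overexpressor myoblast replicates A and C, control myotube replicates A and B, and overexpressor myotube replicates B and C (-0.48 to -0.19 over all 12 libraries left out in turn).

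Fusion and adhesion genes were mixed. Of 17 tested, 6 had a higher and 5 a lower response (16.6% and 22.3% of all genes). The lower count was 3 without overexpressor myotube replicate C and 3 to 5 over all libraries left out in turn. The median (-0.13) changed sign with library totals (0.049). The fusogen Mymk had a difference of -0.27 ± 0.24 (adjusted p 0.4), which was not called. Itga7, the laminin receptor of muscle, had a smaller rise (-0.80), and Jam2 (-1.17) and Cdh15, M-cadherin (-0.56), fell in the overexpressor only. Kirrel3 (1.85) and Cadm1 (2.55), adhesion molecules of the immunoglobulin family, fell in the control only. Cav3, the muscle caveolin, had 0 counts in overexpressor myoblasts, rose at least 1426-fold there to 106, 74.5 and 95.5 CPM, and rose in the control to 129, 131 and 119.8 CPM, so its called difference rests on a myoblast group at the floor.

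**Figure D5:**
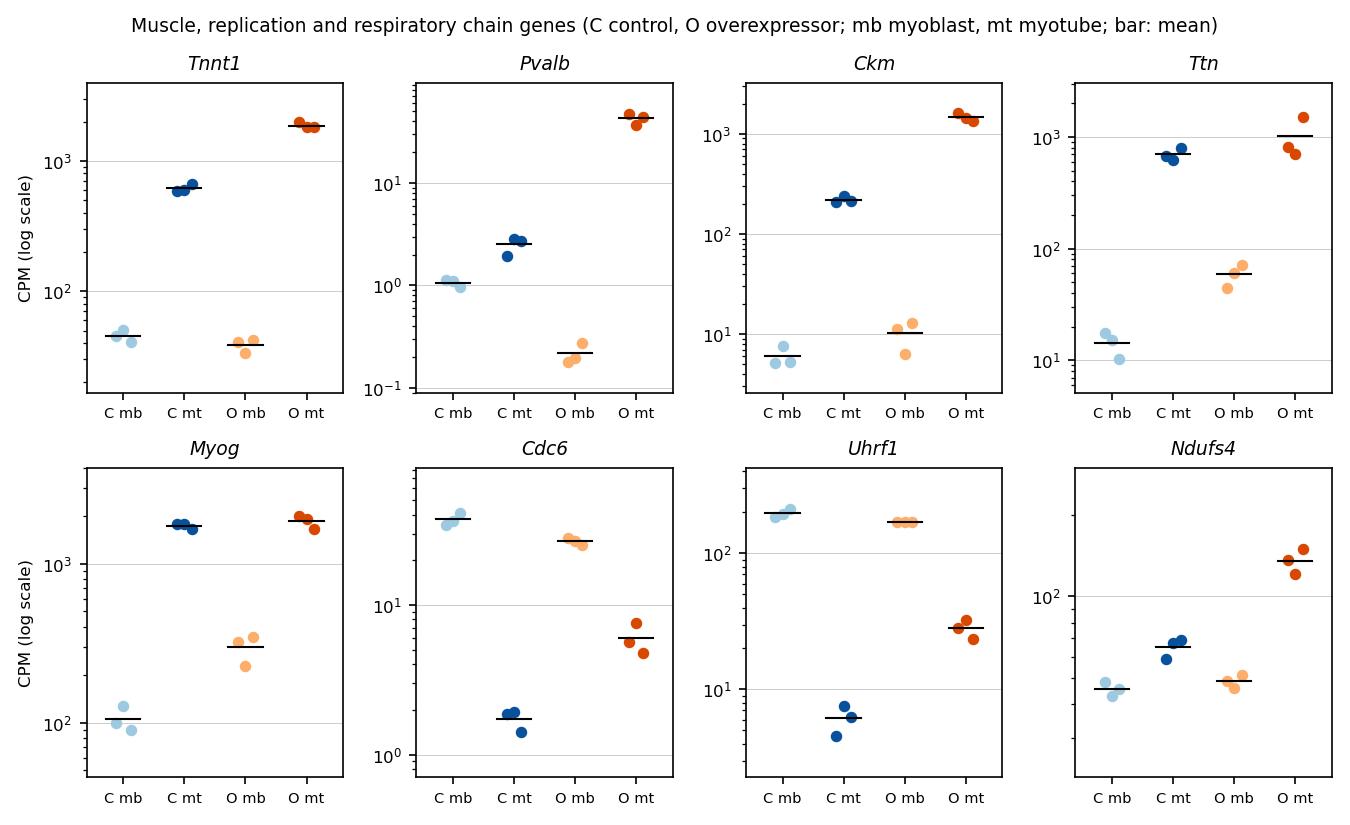
CPM of each library on a log axis for the muscle genes Tnnt1, Pvalb, Ckm, Ttn and Myog, the replication genes Cdc6 and Uhrf1 and the respiratory chain gene Ndufs4, with bars at the means. Overexpressor myotubes are the highest group for Tnnt1, Pvalb, Ckm and Ndufs4, and for Cdc6 and Uhrf1 they lie between control myotubes and the myoblasts of both lines.

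Replication and mitosis genes fell in both lines and fell less in the overexpressor. Of 45 DNA replication genes, 44 fell in each line (28.8% of all genes in the control and 33.0% in the overexpressor). A higher response was called for 32 and a lower one for 2 (16.6% and 22.3% of all genes, median 0.73). Of 49 mitosis and spindle genes, all 49 fell in each line, and 30 had a higher and 1 (Cdc25b, -0.81) a lower response (median 0.81). Without overexpressor myotube replicate C the counts were 38 higher and 1 lower for replication and 32 higher and 1 lower for mitosis. In myotubes 33 of the 45 and 45 of the 49 were higher in the overexpressor (26.2% of all genes). In myoblasts 14 of the 45 were lower and 2 of the 49 (19.7% of all genes).

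Cdc6 (chr11:98907801-98923940), which loads the replicative helicase, stood at 34.2, 36.6 and 41.3 CPM in control myoblasts and at 1.86, 1.92 and 1.41 CPM in control myotubes. Libraries of the overexpressor stood at 27.8, 26.9 and 25.1 CPM as myoblasts and at 5.64, 7.57 and 4.76 CPM as myotubes. Every overexpressor myotube lay above every control myotube and below all myoblasts (difference 2.29 ± 0.20, adjusted p 4.84e-08). Uhrf1 (chr17:56303321-56323486), which maintains DNA methylation at replication forks, stood at 187, 194 and 213 CPM in control myoblasts and at 4.51, 7.58 and 6.28 CPM in control myotubes. Its overexpressor levels were 171, 169 and 169.8 CPM in myoblasts and 28.4, 32.2 and 23.6 CPM in myotubes. The order of the groups was the same (difference 2.42 ± 0.18, adjusted p 1.01e-08). The helicase subunit Mcm5 fell from 236 to 11.7 CPM in the control and from 172 to 31.9 CPM in the overexpressor, and the mitotic genes Spc24 (1.68), Espl1 (1.48) and Kif23 (1.44) likewise fell less.

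The replication genes with a lower response were Orc6 (-0.36) and Rrm2 (-0.30), both small and neither called with size factors or totals. The proliferation marker Mki67 had a difference of 0.97 ± 0.37 (adjusted p 0.052), which was not called, and it was called with size factors (1.07, adjusted p 0.028), with totals (1.15, adjusted p 0.027) and without any 1 of 3 libraries. These were overexpressor myoblast replicate B (1.22, adjusted p 0.019), control myotube replicate C (1.25, adjusted p 0.015) and overexpressor myotube replicate A (1.14, adjusted p 0.03). Whether more cells kept cycling or each cell kept more of these RNAs cannot be told from bulk RNA.

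Genes of cell cycle exit and p53 targets were mixed, with 6 higher and 10 lower of 30 tested (16.6% and 22.3% of all genes). The higher count was near the share of all genes, and the median (-0.15) changed sign with totals (0.037). Cdkn1a, the inhibitor p21 that marks exit, rose in both lines, from 237 to 2362 CPM in the control and from 401 to 2914 CPM in the overexpressor. Its difference of -0.45 ± 0.14 lost its call with size factors (-0.34, adjusted p 0.099), with totals (-0.26, adjusted p 0.12) and without overexpressor myoblast replicate C (-0.38, adjusted p 0.052) or overexpressor myotube replicate C (-0.28, adjusted p 0.14). Sesn2, a sestrin that restrains mTORC1 and a target of the stress pathway, had a smaller rise (-1.74), while its relative Sesn1 was reversed from a fall to a rise (1.11). Gadd45b (1.40) and Gadd45a (-0.92) differed in sign.

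Nuclear-encoded respiratory chain subunits rose more widely in the overexpressor. Of 77 tested, 55 rose in the control (33.9% of all genes did) and 72 in the overexpressor (29.8% of all genes). A higher response was called for 39 and a lower one for 1, Uqcrq (16.6% and 22.3% of all genes). The median difference was only 0.29, so these are small shifts shared by many genes, and without overexpressor myotube replicate C the counts were 47 higher and 0 lower. The call of Uqcrq (-0.43) was lost without that library (-0.26, adjusted p 0.15), with size factors (-0.31, adjusted p 0.1) and with totals (-0.24, adjusted p 0.13). In myotubes 44 subunits were higher in the overexpressor and 7 lower (26.2% and 30.9% of all genes). In myoblasts 5 were higher and 11 lower (20.7% and 19.7% of all genes).

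Ndufs4 (chr13:114287795-114388258), an assembly subunit of complex I, stood at 48.2, 43.0 and 45.6 CPM in control myoblasts and at 58.8, 67.3 and 69.0 CPM in control myotubes. In the overexpressor it stood at 48.8, 45.8 and 51.3 CPM in myoblasts and at 137, 121 and 149 CPM in myotubes. Overexpressor myotubes were the highest group and control myotubes the next, and the myoblasts of the lines overlapped (difference 0.97 ± 0.11, adjusted p 1.49e-06). Atp5k of the ATP synthase differed by 0.97 ± 0.11, and Cox7a1, the muscle isoform of a cytochrome oxidase subunit, by 1.79 ± 0.48 at means of 1.78 CPM in control and 5.81 CPM in overexpressor myotubes, and its difference was 2.42 (adjusted p 0.00037) without overexpressor myoblast replicate C.

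Of 40 genes of mitochondrial biogenesis and fatty acid oxidation, 9 had a higher and 3 a lower response (16.6% and 22.3% of all genes, median 0.068). The counts were 14 and 3 with size factors and likewise with totals. Without overexpressor myotube replicate C 13 were higher and 4 lower, and without overexpressor myoblast replicate B 11 were higher and 7 lower. Ucp2, an uncoupling protein of the inner membrane, was reversed, at 144, 156 and 143 CPM in control myoblasts, 112, 131 and 106 CPM in control myotubes, 46.2, 34.2 and 48.8 CPM in overexpressor myoblasts and 229.9, 232 and 189 CPM in its myotubes (difference 2.67 ± 0.17). Pdk4, which closes pyruvate entry, fell less (1.94), and Acaa2 of beta oxidation was reversed from a fall to a rise (1.15). Acot2, a mitochondrial thioesterase, rose from 4.94 to 81.0 CPM in the control but only from 6.41 to 9.53 CPM in the overexpressor (difference -3.47 ± 0.17). Lipoprotein lipase (Lpl) rose in the control and fell in the overexpressor (-3.37), and the coactivator Ppargc1a stayed low, with a mean of at most 1.34 CPM and no called difference (-0.95 ± 0.63).

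Growth factor genes showed large and opposed differences. In the list of IGF, growth factor and Notch genes 15 of 36 had a higher and 9 a lower response (16.6% and 22.3% of all genes, median 0.13). Igfbp5 (chr1:72857932-72874884), an IGF-binding protein induced early in differentiation, stood at 729, 751 and 727 CPM in control myoblasts and at 2342, 2037 and 2192 CPM in control myotubes. Overexpressor myoblasts had 5562, 5281 and 5704 CPM and overexpressor myotubes 2563, 2341 and 2613 CPM. Overexpressor myoblasts were the highest group, and its response was reversed against the control (difference -2.71 ± 0.094, adjusted p 3.31e-13). Igf1 rose from 13.9, 10.2 and 9.76 to 74.3, 72.3 and 85.9 CPM in the control. In the overexpressor it had at most 2 counts per myoblast library and reached 1.604, 1.15 and 3.13 CPM, at least 30.3-fold higher, so every overexpressor library stayed below every control library.

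Igf2 rose more in the overexpressor (1.02 ± 0.20) to a similar level, 17.99 CPM against 23.7 CPM in the control. Igfbp4 had a smaller rise (-2.44) and stood at 5.37 CPM in overexpressor against 242 CPM in control myotubes. The Notch target Heyl rose in the control only (-1.79). Fgfr4, a receptor of myoblasts, fell from 39.4 to 4.49 CPM in the control, and it rose from 0.102 to 1.502 CPM in the overexpressor.

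In the TGF-beta, BMP and Wnt list 15 of 57 had a higher and 22 a lower response (16.6% and 22.3% of all genes), and the split was 19 and 17 with library totals. Among the lower responses, the Wnt antagonists Sfrp1 (-5.36) and Dkk2 (-2.75) and the BMP antagonist Nog (-3.88) rose in the control and fell in the overexpressor. The activin antagonist Fst, named after its values were seen, had a larger rise (2.26). Also among the higher responses, Wnt10a fell from 48.6, 50.7 and 52.8 to 25.4, 24.2 and 21.6 CPM in the control, and it rose from 3.33, 2.54 and 3.86 to 32.5, 25.7 and 27.1 CPM in the overexpressor (difference 4.23 ± 0.19). Bmp4 was near 0 in the overexpressor, at a mean of 0.609 CPM in myotubes against 54.4 CPM in the control, and its call (2.69) was lost without overexpressor myoblast replicate A (2.35, adjusted p 0.077) or B (2.76, adjusted p 0.058), with no filter and with limma-voom (1.20, adjusted p 0.25).

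The FoxO and muscle wasting list, which holds genes of protein breakdown and autophagy, had 5 higher and 11 lower responses of 23 (16.6% and 22.3% of all genes, median -0.24). Sqstm1, the autophagy receptor p62, stood at 600.5, 644 and 633 CPM in control myoblasts, 1883, 1787 and 1651 CPM in control myotubes, 855, 709 and 817 CPM in overexpressor myoblasts and 538, 515 and 436 CPM in its myotubes. It rose in the control and fell in the overexpressor (difference -2.18 ± 0.13). The lysosomal protease Ctsl had a smaller rise (-1.86). Fbxo32, the atrophy ubiquitin ligase atrogin-1, was reversed from a fall to a rise (1.83), and Foxo4 rose in the overexpressor only (0.98). Klf15, a glucocorticoid-responsive factor of amino acid breakdown, had at most 3 counts in any library outside control myotubes, where it rose at least 126-fold to 7.65, 8.08 and 6.98 CPM.

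Among 34 interferon and antigen presentation genes 12 had a higher and 4 a lower response (16.6% and 22.3% of all genes, median 0.63). Irf1 (1.53) and Irgm1 (1.19) fell in the control and rose in the overexpressor, and Tapbp, the peptide loading factor, fell less (1.46). The class I genes H2-D1 (-1.18) and B2m (-0.69) rose in the control and fell in the overexpressor, so the presentation genes were divided.

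Of 74 chromatin regulators tested, 16 had a higher and 17 a lower response (16.6% and 22.3% of all genes, median -0.011). This balance depended on the setting. The counts were 19 and 13 with size factors (median 0.099) and 22 and 10 with totals. Without overexpressor myotube replicate C they were 20 and 13. Uhrf1, described with the replication genes, had the highest difference, followed by Epop, a Polycomb-associated protein that fell less (2.35), and Dpf1, which fell in the control only (1.83). The class IIa deacetylases Hdac9 (-2.36), which rose in the control only, and Hdac4 (-0.97), which was reversed, had lower responses, as did the SWI/SNF subunit Smarcd2 (-1.13). The Polycomb methyltransferase Ezh2 fell in both lines with no called difference (-0.24 ± 0.21, adjusted p 0.39).

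Within Dlk1-Dio3 the cluster RNAs were high in both stages of the overexpressor, so the difference in response says nothing about them: control was at or under 3 counts in both stages, and no fold is given. In the overexpressor Rian was at 201, 247 and 219.6 CPM in myoblasts and 122, 139 and 184 CPM in myotubes, and Mirg at 10.2, 11.02 and 10.95 and 10.6, 10.5 and 9.96 CPM. Of 12 tested genes of the cluster and its flanks, 0 were called higher and 4 lower (edgeR, 16.6% and 22.3% of all genes). The higher count was 0 at an unadjusted p under 0.05 and 0 to 1 over 20 settings, DESeq2 and limma-voom included. In 4 of the 12, the cluster RNAs among them, a group was at the floor, so the count of 0 says nothing about those. Without overexpressor myotube replicate C 1 was higher and 2 lower. The 4 called lower include the flanking genes Wars (-2.15), a tRNA synthetase that rose in the control only, and Dync1h1 (-0.94), the dynein heavy chain. They also include Wdr25 (-0.56, not called without overexpressor myotube replicate C, -0.38, adjusted p 0.064).

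Imprinted genes elsewhere were divided, with 8 higher and 8 lower of 24 (16.6% and 22.3% of all genes). Mest (chr6:30723547-30748465), an imprinted hydrolase of growing mesoderm, stood at 59.5, 65.7 and 54.2 CPM in control myoblasts and at 2.86, 3.91 and 2.94 CPM in control myotubes. The overexpressor held 45.8, 39.8 and 46.9 CPM in myoblasts and 57.0, 80.1 and 56.9 CPM in myotubes. Only the control myotubes were low, and all the other groups overlapped or lay close (difference 4.76 ± 0.22, adjusted p 1.18e-11). Zim1 fell less (1.15, not called without control myoblast replicate A, 1.01, adjusted p 0.051, or control myotube replicate A, 1.06, adjusted p 0.052). Peg10 (-1.06) fell more, and its neighbour Sgce (-1.30) fell in the overexpressor only.

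Across all genes, the strongest reversals from rise to fall were Atp2a3, Cdsn and Prg4, among genes with at least 0.5 CPM in every group. Cdsn (chr17:35552128-35557180), corneodesmosin, known from skin, stood at 6.59, 7.29 and 6.86 CPM in control myoblasts and at 501, 421 and 376 CPM in control myotubes. Values of the overexpressor were 10.2, 10.9 and 10.95 CPM in myoblasts and 2.67, 3.09 and 2.06 CPM in myotubes. Control myotubes were more than 30-fold above any other library, and overexpressor myotubes were the lowest (difference -8.00 ± 0.21, adjusted p 2.44e-14). Atp2a3 (chr11:72961169-72993044), the calcium pump SERCA3 of nonmuscle cells, stood at 1.39, 1.37 and 1.00 CPM in control myoblasts and at 83.0, 76.4 and 70.8 CPM in control myotubes. Libraries of the overexpressor stood at 4.33, 4.31 and 4.97 CPM as myoblasts and at 1.01, 0.913 and 0.708 CPM as myotubes. Control myotubes were again the highest and overexpressor myotubes the lowest group (difference -8.30 ± 0.27, adjusted p 1.59e-13). Prg4, the joint lubricant lubricin, rose to 109, 57.3 and 85.5 CPM in control myotubes, and it fell from 12.01 to 5.46 CPM in the overexpressor (difference -6.54 ± 0.28).

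Under the same limit, which leaves out Cnn1 (9.53), the opposite reversal was led by Lmod1 and Myl9, described above, and by Ptprv. Ptprv is a tyrosine phosphatase and p53 target. Ptprv fell from 12.9, 12.5 and 13.1 to 1.02, 1.12 and 0.920 CPM in the control, and it rose from 4.79, 3.67 and 5.29 to 12.8, 13.5 and 9.33 CPM in the overexpressor (difference 5.03 ± 0.23), so that its myotubes reached the control myoblast level. Among genes with at least 0.5 CPM in every group, larger rises were led by Bgn, Mss51 and Sema4d, a semaphorin (3.37). Mss51, a mitochondrial regulator of muscle, had 1.93 CPM in control and 50.5 CPM in overexpressor myotubes (difference 4.55). Genes under that limit, such as Pvalb (6.39), had larger differences. Larger falls were led by Ly6a, the stem cell antigen Sca-1 (-4.23), Krt14 (-3.06) and the metalloproteinase Adam8 (-3.03), all 3 higher in overexpressor than in control myoblasts.

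With the same limit of 0.5 CPM in every group, smaller rises were led by Trib3, by Gpm6b, a membrane glycoprotein (-3.85), and by Acot2. Dpt (-5.87), under that limit, had a lower difference. Smaller falls were led by Agap2 (3.01), Ulbp1 (2.90) and the sialoglycoprotein Spn (2.80), again within the limit. Rises seen in the control only included Avil, the actin-binding advillin, from 0.383 to 73.3 CPM against 0.290 and 0.304 CPM in the overexpressor. They also included Atp6v0d2, a proton pump subunit, which rose at least 103-fold in the control to 6.18 CPM and stood at 0.386 CPM in overexpressor myotubes. Falls in the control only included the receptor Lrp2, from 10.1 to 0.539 CPM, and the cadherin Dchs1, from 7.13 to 0.637 CPM, both below 0.1 CPM on average in the overexpressor at either stage.

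Among responses seen in the overexpressor only, Pthlh, the parathyroid hormone-related peptide, fell from 6.13, 6.06 and 7.12 to 0.312, 0.425 and 0.319 CPM in the overexpressor and stood at 0.641 and 0.588 CPM in control myoblasts and myotubes, so it fell from a level that the control did not have. Gpnmb, a lysosomal glycoprotein (-4.003), and the phosphatase Ptpn22 (-3.30) also fell in the overexpressor only. The scavenger receptor Colec12 rose at least 114-fold there, to 7.36 CPM, against 105 CPM in control myotubes. Wfdc1, a secreted protease inhibitor, rose in the overexpressor only, from 0.252 to 9.43 CPM, and was near 0 in the control. The Wnt receptor Ror2 rose from 0 counts to 0.564, 0 and 0.417 CPM in the overexpressor, still below control myotubes at 2.65, 3.32 and 2.76 CPM. Its called difference was lost with limma-voom (2.52, adjusted p 0.13), as was that of Colec12 (5.59, adjusted p 0.085).

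Markers of further cell types gave these summed levels, with each range taken over the 3 libraries of a group. The 7 neural markers, mainly Tubb3, Map2 and Nefl, ran from 45.3 to 54.3 CPM in control myoblasts, 8.22 to 9.22 CPM in control myotubes, 222 to 244 CPM in overexpressor myoblasts and 33.1 to 39.0 CPM in its myotubes. The highest sum in any library was 51.6 CPM for 9 adipocyte, 191 CPM for 9 chondrocyte and 108 CPM for 8 osteoblast markers. These sums came mainly from the transcription factors Pparg and Cebpa, Sox9, and Runx2, while Adipoq, Acan and Ibsp were at or near 0 in every group. The summed level of 7 endothelial markers was at most 3.16 CPM in any library and that of 7 macrophage and leukocyte markers at most 13.7 CPM, with Tie1 and Adgre1 at 0 in every group. Exons of Prg4 overlap Tpr, those of Avil overlap Tsfm, those of Mest overlap Copg2, those of Sqstm1 overlap Mrnip, those of Ucp2 overlap Dnajb13 and those of Myl2 overlap Ccdc63 on the opposite strand. Reads of such pairs cannot be told apart where strand was not used.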

How the data were processed

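PolyA RNA of C2C12 myoblasts and myotubes was sequenced in 18 libraries. The authors deposited raw counts per Ensembl gene. Per the submitters' processing notes the build was mm10 and the tools included STAR 2.7.9a, featureCounts, Subread 2.0.3, FastQC 0.11.7 and DESeq2 1.32.0, while the release of the annotation and whether strand was used are not given in the sources used here. Their deposited variance-stabilised values on a log2-like scale were not used. Every column was matched to a library by its name, and 0 columns were left over. The table held 55450 gene IDs, of which 260 had no symbol in GENCODE M21 for GRCm38, the source of all gene positions.

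The test was edgeR 4.0.16 (R 4.3.3, TMM scaling, filterByExpr by group, robust quasi-likelihood fit). The filter left 17912 genes and no less than 99.97% of any library's counts. A single fit of 6 groups held all 18 libraries, with 12 residual degrees of freedom. The contrast was the myotube minus myoblast change of the overexpressor less that of the control, with Benjamini-Hochberg adjustment over all genes tested and a threshold of 0.05. A gene is called where it passes. The standard error is the absolute log2 change divided by the square root of F. Called genes were sorted by the tests within each line into larger (same direction, larger size), smaller, reversed, control-only and overexpressor-only responses. CPM are counts per 1000000 of the TMM-scaled library size. Intervals and floors of 3 counts cover counting error only.

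The comparison, the gene lists and the genes were chosen with earlier results of these data known. Named were the 3 called genes with the largest difference in each class and direction (at least 5 CPM in the highest group and, for larger, smaller and reversed responses, 0.5 CPM in each group), the 3 highest and 3 lowest called members of each list under the same 5 CPM limit, and a fixed set of Meg3, Rian, Mirg, Myog, Myod1, Mymk, Myh3, Ckm, Ppargc1a, Ezh2 and Cdkn1a. Others are said to be chosen after their values were seen. Some of these genes are not reported here. Of the list names, 8 matched no symbol. Lists are described by counts and medians, with no set test. Promoters are RefSeq's.

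Alternatives were DESeq2 1.42.0 size factors, library totals, no filter, at least 1 CPM in 3 libraries, the DESeq2 Wald test, limma-voom (limma 3.58.1) with sample weights, the 12 libraries alone, a replicate block, an adjusted p under 0.01, glmTreat against a 2-fold difference, and leaving out each library in turn. On simulated data with 17597 genes, 71 of 100 genes changed 2-fold and 95 of 100 changed 4-fold were recovered, and 13 of 17223 unchanged genes were called. The simulation gave a gene the same dispersion in all libraries and left most genes unchanged. The data had unequal spread between groups, an outlying library and far more calls. These numbers are therefore not error rates of the calls.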

Additional observations from a re-analysis of the deposited data

Results flagged for a closer look

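The responses of the lines to differentiation differed, by the interaction test, for 6977 genes, and for 1110 of these both lines responded, in opposite directions. Among genes with at least 0.5 CPM in every group, the differences (overexpressor minus control, log2) of the genes leading the reversals from rise to fall were -8.30 for Atp2a3, -8.00 for Cdsn and -6.54 for Prg4. Those of the genes leading the reversals from fall to rise were 5.69 for Lmod1, 5.26 for Myl9 and 5.03 for Ptprv. In each of these 6 genes the interaction passed the threshold, and the 3 libraries of each stage did not overlap within either line.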

How the results depend on the processing

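With size factors, totals, either other filter, the DESeq2 Wald test, limma-voom, the 12 libraries alone or the replicate block, 6283 to 8374 genes were called, and each response class stayed within 1.5 times its count. Leaving out 1 library gave 6383 to 7222 genes (2710 to 3730 higher, 3492 to 4014 lower). The classes then held 1206 to 1489 larger, 1191 to 1449 smaller, 969 to 1100 reversed, 1287 to 1612 control-only and 1387 to 1602 overexpressor-only responses. Lists not yet counted without overexpressor myotube replicate C then had these called members, higher and lower. Excitation-contraction coupling had 14 and 6, creatine and glycolysis 16 and 5, and acetylcholine receptor genes 7 and 1. Cell cycle exit had 6 and 10, IGF and Notch 16 and 9, and TGF-beta, BMP and Wnt 17 and 19. FoxO had 5 and 9, interferon 15 and 5, and imprinted genes elsewhere 9 and 7. At an adjusted p under 0.01 there were 938 larger, 898 smaller and 731 reversed responses. Against a 2-fold difference (glmTreat) 1475 genes were called, 706 higher and 769 lower. This stricter test called 20 lower members of the stress response list and 18 of the matrix list, but 3 higher members each of the cholesterol and mitosis lists and 0 of the respiratory chain list.

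Of 166 named genes 158 were called. Over the 21 settings tried for named genes, 140 of these kept their call and direction in each except glmTreat, or 95 with it. The adjusted p under 0.01 was not among those 21 settings. Directions changed only for cluster RNAs at the floor in the control, with no call: Mirg (0.033 with size factors, 0.074 with the Wald test, -0.084 to 0.021 with 1 library left out, the highest without overexpressor myotube replicate C) and Rian (-0.59 to 1.88 with 1 left out, the lowest without control myoblast replicate B). The replicate block gave 6598 calls (2800 higher, 3798 lower), of which 6564 were shared with the fit without it. Replicate letters did not pair the libraries: same-letter deviations correlated at -0.16 to 0.264, and 4 of 12 libraries correlated best with their own letter. Depth limited genes at the floor, whose folds are lower bounds.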
